A study of Mus musculus with 2 samples.

Results

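The 34 genes described here are 28 immediate early genes and 6 heat shock genes, out of 33696 genes counted in each library. They were picked by symbol. The immediate early genes comprised 19 transcription factors and 9 other genes, and the heat shock genes were Hspa1a, Hspa1b, Hsph1, Hspa8, Dnajb1 and Hsp90aa1. Each symbol matched 1 gene.

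Immediate early genes are transcribed within minutes of a stimulus such as a growth factor, a cytokine or mechanical stress, without need of new protein synthesis. Their products include AP-1, EGR, NR4A and Krüppel-like transcription factors, as well as phosphatases and RNA-binding proteins that end the response. Heat shock genes encode chaperones that fold or refold proteins, and the inducible ones are driven by heat shock factor 1 when unfolded protein accumulates. Both kinds of gene are known to respond to wounding, to inflammation and to the enzymatic dissociation of tissue at warm temperature.

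The data were single-cell RNA counts from ulcerated lesional skin of mice, with 1 wild-type library and 1 from a sample labelled as overexpressing Has2, a hyaluronan synthase, in its whole body. Both samples carried the same label of tape stripping, 40 to 50 strips a day on 15 days in a row, and this label opens in mid-sentence, so that a step before stripping may be missing. No promoter or line of the transgene is named in the labels, nor the number or age of the animals. Tissue of both was dissociated with dispase, accutase and collagenase at body temperature within an hour of collection, and both libraries were made with the same 10x Genomics kit that reads transcripts from their 5′ ends. The labelled molecule differs, polyA RNA in the transgenic sample and total RNA in the other. With 1 library per genotype, genotype, animal, handling time and library preparation cannot be told apart, and no difference below has a test or a replicate check.

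The wild-type library held 16999 barcodes and 143875454 unique molecular identifiers (UMIs), and the library labelled Has2-transgenic 14622 barcodes and 134917708 UMIs. After filters 15681 and 13560 cells remained, and 79 barcodes occurred in both libraries. Levels are in CPM, the UMIs of a gene scaled to the same total in each class. Has2 itself gave 187 CPM in wild-type fibroblasts and 147 in those of the other library, a ratio of 0.785, against 0.179 and 1.68 CPM in macrophages and 0.438 and 3.75 in neutrophils. The check of the labels was thus mixed, lower in fibroblasts and higher from very few UMIs in leukocytes. In all, 6 classes of cells, each named from marker genes and meaning cells like the named type, were compared. They were fibroblasts (2395 wild-type cells and 2312 others), endothelial cells (248 and 243), macrophages or monocytes (5219 and 4601), neutrophils (6415 and 5414), dendritic cells (315 and 104) and T cells (267 and 156). Median depth was 15817 and 24542 UMIs per cell in fibroblasts, 3065 and 2059.5 in neutrophils, and 3832 and 3145.5 in T cells. UMIs were summed over the cells of a class. Every ratio divides the level in the library labelled Has2-transgenic by the wild-type level, with a 95% interval that covers counting error only. A member was measured in a class when it had at least 20 UMIs over both libraries.

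The heat shock genes had ratios above 1 in more classes than most of the transcription factors. All 6 had ratios above 1 in fibroblasts, endothelial cells, macrophages, neutrophils and dendritic cells, and 5 of 6 in T cells. Over all genes measured, 46.9% of 16515 were above 1 in fibroblasts, 53.4% of 11472 in endothelial cells and 59.2% of 14517 in macrophages. The same share was 50.3% of 10727 in neutrophils, 40.1% of 8978 in dendritic cells and 46.9% of 7891 in T cells. Of the 19 transcription factors, 2, Fos and Nr4a1, were above 1 in every class, although 15 were measured in all 6. The share of all genes above 1 in every class was not counted. For Nr4a1 this did not hold under every alternative: with equal weight for each cluster it was 0.763 in macrophages and 0.901 in neutrophils, in dendritic cells chosen by their own markers alone 0.732, and in T cells 0.670 after thinning to 1000 UMIs per cell and 0.855 with presumed doublets kept.

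**Figure D1:**
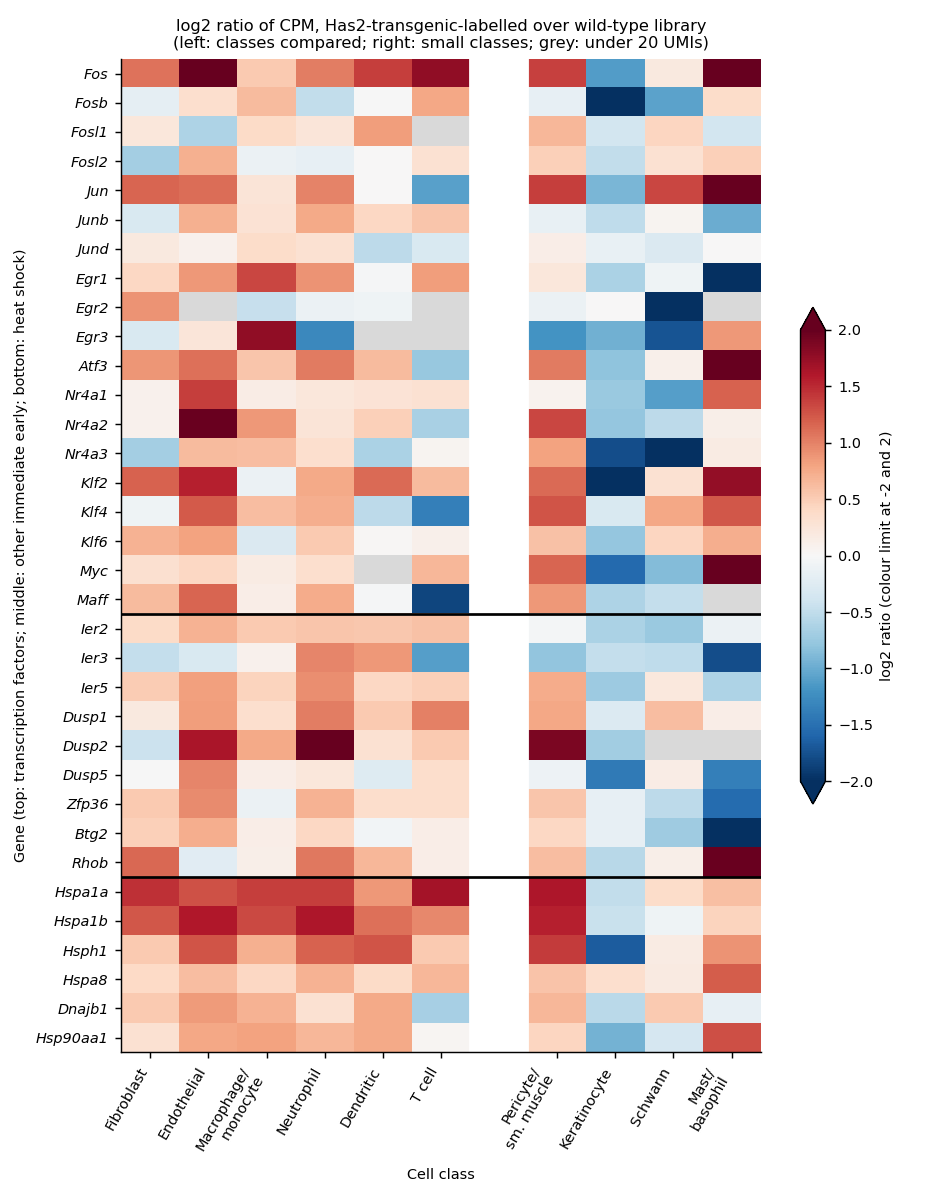
Colours give the log2 ratio of each member (rows) in each cell class (columns), transgenic-labelled over wild-type, with the classes compared on the left and 4 small classes on the right. The heat shock rows at the bottom are red in nearly every compared class, and the transcription factor rows at the top are mixed.

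The promoters of 5 members are shown, with a short sequence element marked in each. The heat shock element is built from inverted repeats of GAA, searched here as GAANNTTC and TTCNNGAA, and TGACGTCA is the cyclic AMP response element. Sequences are the 150 bases before the RefSeq transcription start in build GRCm38.p6, written 5′ to 3′ on the gene's own strand, with capitals on the element named. The counts were made on GRCm39, and these coordinates were not converted. In Hspa1a (chr17:34972157-34972306, minus strand) and Hspa1b (chr17:34959239-34959388, minus strand) the capitals mark GAANNTTC. In Hsph1 (chr5:149636337-149636486, minus strand) they mark TTCNNGAA, in Fos (chr12:85473740-85473889, plus strand) TATAAA, and in Dusp1 (chr17:26508473-26508622, minus strand) TGACGTCA.
Hspa1a: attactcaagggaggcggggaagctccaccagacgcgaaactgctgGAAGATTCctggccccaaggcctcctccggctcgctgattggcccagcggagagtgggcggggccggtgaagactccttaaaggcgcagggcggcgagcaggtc
Hspa1b: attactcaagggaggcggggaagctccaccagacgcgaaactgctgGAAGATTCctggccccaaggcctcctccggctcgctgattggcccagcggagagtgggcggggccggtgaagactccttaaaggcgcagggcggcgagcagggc
Hsph1: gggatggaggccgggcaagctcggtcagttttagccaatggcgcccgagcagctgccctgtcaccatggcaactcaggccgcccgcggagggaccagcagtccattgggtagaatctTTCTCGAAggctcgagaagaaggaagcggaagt
Fos: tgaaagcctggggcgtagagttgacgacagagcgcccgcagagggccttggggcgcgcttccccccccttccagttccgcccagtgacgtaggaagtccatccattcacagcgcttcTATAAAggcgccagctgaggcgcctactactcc
Dusp1: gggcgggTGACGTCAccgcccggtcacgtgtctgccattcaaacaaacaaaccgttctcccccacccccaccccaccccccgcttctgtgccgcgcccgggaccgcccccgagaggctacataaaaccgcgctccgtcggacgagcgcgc

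The windows of Hspa1a and Hspa1b were nearly the same sequence, with 3 of 250 bases different and 1 of the 150 shown. RefSeq windows were at hand for 27 of the 34 members. Both strands of the 250 bases before each start were searched. GAANNTTC lay in the windows of Hspa1a, Hspa1b, Fosl2 and Jun, and in 7.73% of 27025 genes. TTCNNGAA lay in those of Hsph1 and Egr2, and in 8.11% of genes. The CArG box, the site of serum response factor, lay in the windows of Egr2, Dusp5 and Zfp36 and in 1.62% of genes. TGACGTCA was found in Maff, Dusp1 and Btg2 and in 1.77% of genes, and TATAAA in Fos and Nr4a2 and in 14.3%. The AP-1 site TGANTCA was found in no member's window and in 7.82% of genes. These are matches of letters in a short window and show no binding. An element farther than 250 bases before the start was not searched for, and members without a window, such as Egr1, were not searched. A gene not named here, Fos among them for the CArG box, may thus still have the element.

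Hspa1a and Hspa1b, the inducible 70-kDa chaperones, had the highest ratios of the heat shock genes in fibroblasts, endothelial cells, macrophages and neutrophils. In dendritic cells Hsph1 was higher. Hspa1a and Hspa1b are near-identical neighbours whose reads the counting can split or drop, so their sum is given first. Wild-type fibroblasts had 326 CPM of the pair and those of the other library 829, which gives 2.54 (2.49 to 2.59). Endothelial cells had 675 and 1839 CPM (2.72, 2.61 to 2.84). The values were 247 and 632 CPM in macrophages, a ratio of 2.56 (2.50 to 2.62). The class with the lowest level of the pair was neutrophils, at 10.7 and 30.2 CPM from 219 and 354 UMIs, and the ratio there was 2.83 (2.39 to 3.37). Dendritic cells had 249 and 489 CPM (1.96, 1.75 to 2.20) and T cells 144 and 351 CPM (2.44, 1.97 to 3.02). With equal weight for each cluster the neutrophil ratios were 1.72 for Hspa1a and 1.79 for Hspa1b.

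A few cells held much of the pair's RNA in the smaller classes. In dendritic cells 1 wild-type cell held 58.8% of Hspa1a UMIs and 52.8% of Hspa1b UMIs, and 1 cell of the other library held 33.1% and 43.6%. Without the top cell of each gene the dendritic ratio of Hspa1a went from 1.82 to 2.96 and that of Hspa1b from 2.15 to 2.57. In T cells 1 cell labelled Has2-transgenic held 52.5% of Hspa1a UMIs and 56.5% of Hspa1b UMIs. Without such cells the T cell ratios were 2.07 in place of 3.17 for Hspa1a and 1.08 in place of 1.95 for Hspa1b. When presumed doublets were kept they were 1.23 and 0.749. In neutrophils the top wild-type cell held 43.1% of Hspa1b UMIs, and the ratio was 3.07 with it and 4.53 without it. In fibroblasts and macrophages no single cell held over 4.15% of either gene.

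Among the co-chaperones, Hsph1, a nucleotide exchange factor of the 70-kDa chaperones, had 167 CPM in wild-type endothelial cells and 401 in the others (ratio 2.40, 2.20 to 2.61). Its fibroblast values were 120 and 173 CPM (1.44, 1.40 to 1.49). The macrophage values were 54.7 and 89.2 CPM (1.63, 1.55 to 1.72). Hsph1 was close to absent from neutrophils, with 20 and 26 UMIs. In dendritic cells its ratio was 2.38 (1.85 to 3.04), from 47.5 and 113 CPM, and it was 1.68 without the top cell, which held 35.8% of the UMIs of the library labelled Has2-transgenic. In T cells it was 1.44 (1.11 to 1.86).

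Dnajb1, the J-domain partner of the inducible chaperones, was the heat shock gene with values on both sides of 1. Its ratios were 1.44 in fibroblasts, 1.80 in endothelial cells, 1.62 in macrophages, 1.24 in neutrophils and 1.69 in dendritic cells. With equal weight for each cluster the neutrophil ratio was 0.948. With dendritic cells chosen by their own markers alone, that ratio was 0.792, and that of Hsph1 was 0.732. Wild-type T cells had 102 CPM of Dnajb1 and the others 63.6 (0.620, 0.413 to 0.912), from 117 and 35 UMIs.

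Hspa8, the abundant constitutive 70-kDa chaperone, had 2072 and 2733 CPM in fibroblasts (1.32, 1.31 to 1.33) and 2418 and 3683 in endothelial cells (1.52, 1.49 to 1.56). Its ratios were 1.34 in macrophages, 1.62 in neutrophils, 1.31 in dendritic cells and 1.59 in T cells, so that it was above 1 by a similar amount in all 6 classes. Hsp90aa1, the inducible cytosolic 90-kDa chaperone, had 542 and 945 CPM in macrophages (1.74, 1.72 to 1.77). It had 970 and 1670 CPM in endothelial cells (1.72, 1.66 to 1.79). In fibroblasts the ratio was lower, at 1.24 (1.23 to 1.26), and in T cells 857 and 881 CPM could not be told apart by counting error (1.03, 0.921 to 1.15). Neutrophils and dendritic cells had ratios of 1.58 and 1.68.

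**Figure D2:**
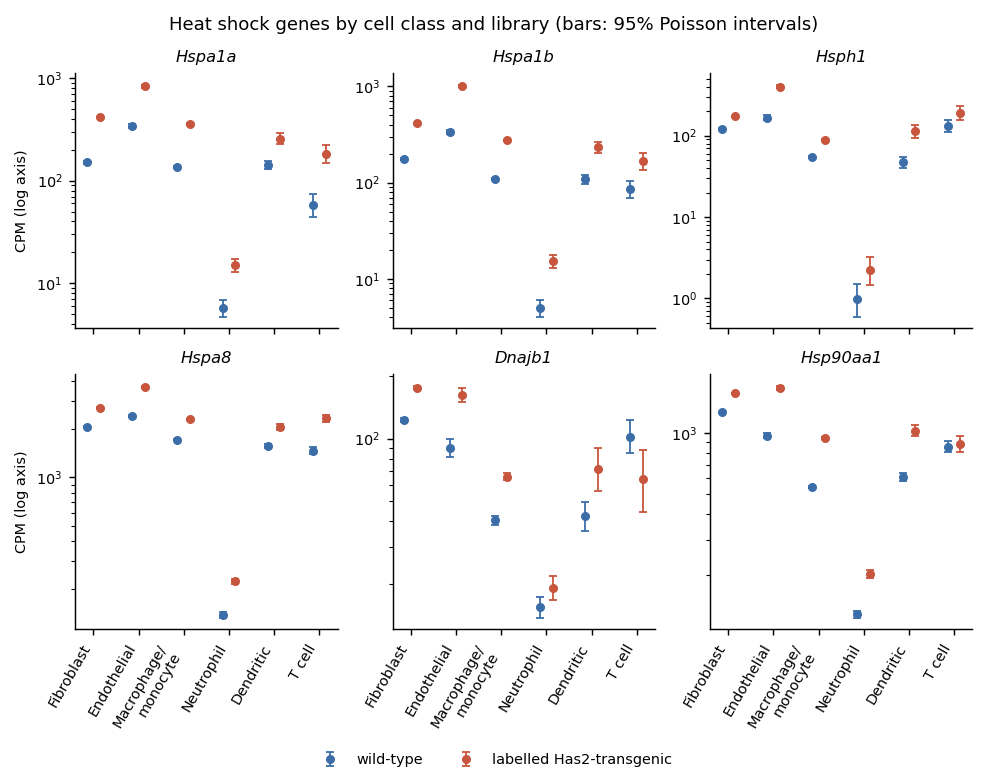
Points are CPM on a log axis for each heat shock gene in the 6 compared classes, blue for wild-type and red for the library labelled Has2-transgenic, with 95% Poisson intervals as bars. Neutrophils are the lowest class for each gene in both libraries, and red lies above blue except for Dnajb1 in T cells.

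The order of the classes was similar in both libraries. Neutrophils were lowest for all 6 genes in the wild-type library, with 5.70 CPM of Hspa1a against 342 in endothelial cells, and 139 CPM of Hspa8 against 2418. Endothelial cells were the highest class for Hspa1a, Hspa1b, Hsph1 and Hspa8 in the wild-type library, and fibroblasts for Dnajb1 and Hsp90aa1. Neighbours in this order were often close, such as fibroblasts and dendritic cells at 151 and 141 CPM of Hspa1a.

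The AP-1 genes split by family member and by class. Fos was higher in every class. Its levels were 139 CPM in wild-type fibroblasts and 296 in the other library (2.13, 2.07 to 2.19), and 74.1 and 398 in endothelial cells (5.37, 4.78 to 6.05). In macrophages it had 164 and 236 CPM (1.44, 1.39 to 1.48) and in neutrophils 45.6 and 92.3 (2.03, 1.85 to 2.21). Endothelial cells thus had less Fos than macrophages and fibroblasts in the wild-type library and the most of the 6 classes in the other. Dendritic cells had 162 and 117 UMIs of Fos (ratio 2.61, 2.04 to 3.34). T cells had 32 and 53 (3.44, 2.17 to 5.51), with 54.7% of the latter in 1 cell, and the T cell ratio was 1.09 after thinning to 1000 UMIs per cell.

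Its partner Jun was higher in 4 classes. The levels were 193 and 433 CPM in fibroblasts (2.25, 2.19 to 2.30), 214 and 465 in endothelial cells (2.17, 2.01 to 2.35) and 306 and 606 in neutrophils (1.98, 1.91 to 2.05). Macrophages differed little, with 422 and 500 CPM (1.19, 1.16 to 1.21). Dendritic cells had 141 CPM in both libraries, and T cells had 133 and 61.8 CPM (0.464, 0.310 to 0.677, from 152 and 34 UMIs).

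Junb did not go with Jun in fibroblasts. It had 526 CPM in wild-type fibroblasts and 425 in the others (0.809, 0.795 to 0.823), while in neutrophils it had 629 and 1061 CPM (1.69, 1.65 to 1.73) and in endothelial cells 269 and 439 (1.63, 1.52 to 1.76). Macrophages, dendritic cells and T cells had ratios of 1.22, 1.32 and 1.46. Jund, the AP-1 member that is expressed without stimulus, stayed within 1.29-fold in fibroblasts, endothelial cells, macrophages and neutrophils, and had ratios of 0.696 in dendritic cells and 0.812 in T cells. Its endothelial ratio was 1.06, but 0.921 when the CPM of single cells were averaged and 0.701 after thinning.

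Fosb and Fosl2, the other FOS-family members, were lower in fibroblasts. Fosb had 255 and 226 CPM there (0.885, 0.864 to 0.907, but 1.26 with equal weight for each cluster) and Fosl2 74.5 and 46.7 (0.626, 0.595 to 0.658). In endothelial cells Fosl2 had 73.4 and 120 CPM (1.63, 1.42 to 1.88), and Fosb 101 and 127 (1.26, 1.11 to 1.43). In neutrophils both were below 1, at 0.707 and 0.892. In macrophages Fosb was at 1.56 and Fosl2 at 0.923. Fosl1 had ratios of 1.17 in fibroblasts (0.936 with equal weight for each cluster), 1.31 in macrophages and 0.656 (0.540 to 0.796) in endothelial cells, where it was the 1 factor of 18 measured below 1.

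**Figure D3:**
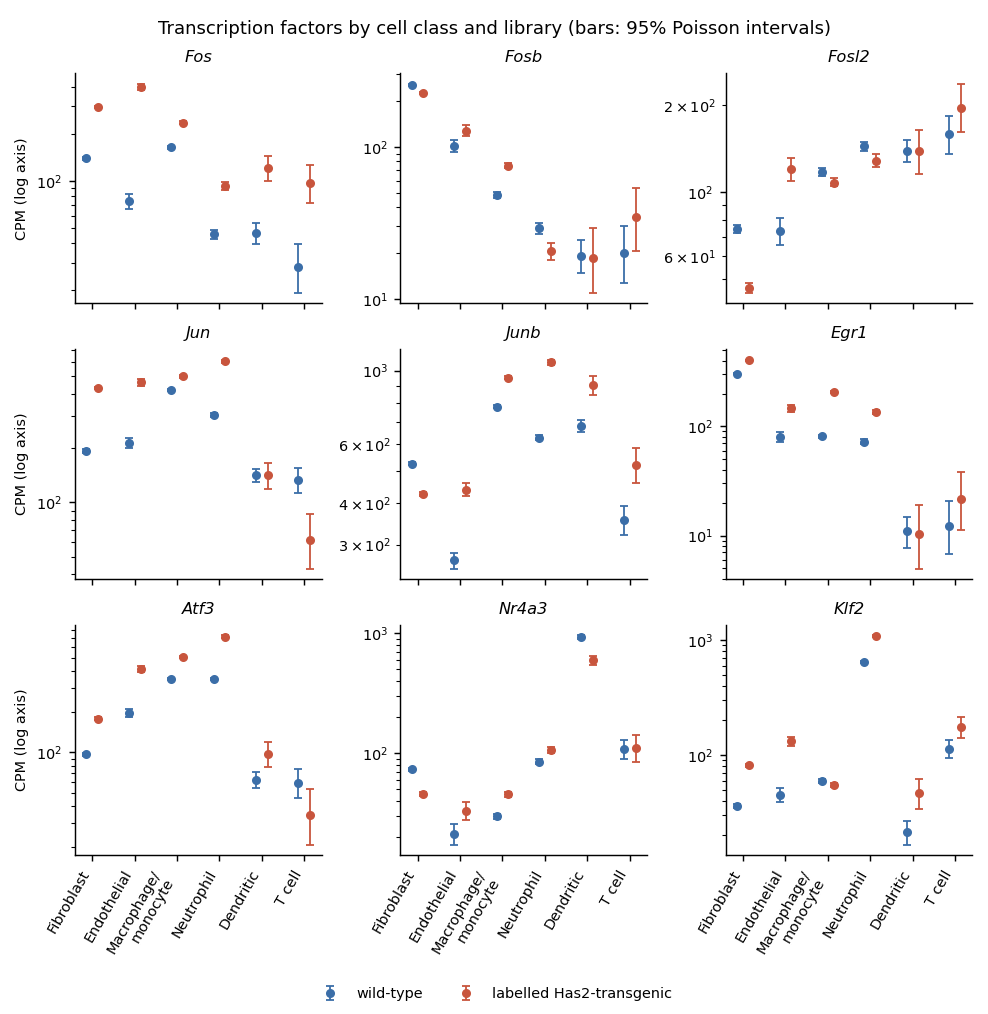
Points are CPM on a log axis for 9 transcription factors in the 6 compared classes, blue for wild-type and red for the library labelled Has2-transgenic, with 95% Poisson intervals as bars. Red lies above blue in each class for Fos, while Fosb, Fosl2, Junb and Nr4a3 have blue above red in fibroblasts.

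Egr1 and Egr3 had their highest ratios in macrophages, while Egr2 was lower there. Egr1, a zinc finger factor of the growth factor response, had 81.6 and 206 CPM in macrophages (2.53, 2.43 to 2.63). In neutrophils it had 72.5 and 135 CPM (1.86) and in endothelial cells 80.7 and 147 (1.82, 1.60 to 2.08). In fibroblasts, its highest class in both libraries, it had 306 and 406 CPM (1.32, 1.30 to 1.35). Dendritic cells and T cells had at most 38 UMIs of it in a library. Egr3 had 1.55 and 5.35 CPM in macrophages (3.46, 2.62 to 4.61, from 69 and 201 UMIs), with 1.63 when clusters had equal weight and 5.95 after thinning, and 10.3 and 4.18 in neutrophils (0.405, 0.291 to 0.555). Egr2, highest in macrophages in both libraries, was lower there, at 48.9 and 35.7 CPM (0.729, 0.681 to 0.781), and was at 4.28 and 8.01 CPM in fibroblasts (1.87, 1.59 to 2.22), where it was 1.28 with equal weight for each cluster and 1.12 after thinning.

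Atf3, a stress-induced repressor of the ATF family, was higher in fibroblasts, endothelial cells, macrophages, neutrophils and dendritic cells. Its levels were 96.9 and 178 CPM in fibroblasts (1.84, 1.78 to 1.90), 195 and 417 in endothelial cells (2.14, 1.97 to 2.32) and 349 and 719 in neutrophils (2.06, 1.99 to 2.13). Macrophages had a ratio of 1.46. The dendritic ratio was 1.55, and 0.799 when cells were chosen by their own markers alone. T cells had 68 and 19 UMIs, a ratio of 0.580 (0.329 to 0.975).

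The NR4A orphan receptors were higher mainly in endothelial cells. Nr4a1 had 27.5 and 72.3 CPM there (2.63, 2.13 to 3.27) and Nr4a2 10.1 and 40.1 (3.98, 2.86 to 5.63), from 47 and 162 UMIs. Elsewhere Nr4a1 lay between 1.05 and 1.24, with the exceptions under alternatives given at the start. Nr4a2 had a ratio of 1.82 in macrophages and 1.06 in fibroblasts. Nr4a3 was a gene of dendritic cells, with 928 CPM in wild-type cells and 593 in the others (0.639, 0.584 to 0.699), against 108 and 111 CPM in T cells, the next class. It was lower also in fibroblasts, at 73.5 and 46.0 CPM (0.626, 0.595 to 0.659), and higher in endothelial cells (1.56, 1.20 to 2.05) and in macrophages (1.53, 1.43 to 1.65), where it was 0.671 with coarser clusters.

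Klf2, a factor of quiescent endothelium and T cells, had 44.9 and 132 CPM in endothelial cells (2.93, 2.49 to 3.46) and 35.9 and 81.5 in fibroblasts (2.27, 2.14 to 2.40). Neutrophils, its highest class, had 642 and 1083 CPM (1.69, 1.65 to 1.73). Macrophages had 59.7 and 55.1 CPM (0.923, 0.871 to 0.978), the single class with Klf2 below 1. The 5 macrophage clusters with at least 20 cells in each library differed. The log2 ratio of Klf2 was 1.02 in cluster 6 and 0.57 in cluster 8. It was -0.13 and -0.05 in clusters 4 and 5, and -1.42 in cluster 16. Cluster 5 held 1881 wild-type and 814 other cells and cluster 16 held 478 and 964. Klf4 had 85.2 and 199 CPM in endothelial cells (2.33, 2.06 to 2.64) and 196 and 301 in macrophages (1.53, 1.49 to 1.58), but 410 and 389 in fibroblasts (0.948, 0.931 to 0.967). Klf6 was higher in fibroblasts (254 and 411 CPM, 1.62, 1.59 to 1.66), in endothelial cells (1.75) and in neutrophils (1.45), and lower in macrophages (612 and 500 CPM, 0.817, 0.801 to 0.832). The 3 Krüppel-like genes thus differed from each other in fibroblasts and in macrophages.

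Maff, a small MAF protein, had ratios of 1.55 in fibroblasts, 2.24 in endothelial cells, 1.10 in macrophages and 1.67 in neutrophils. Its fibroblast ratio was 0.863 when clusters had equal weight. Myc was a gene of fibroblasts and endothelial cells, at 121 and 150 CPM in the former (1.25, 1.21 to 1.29) and 87.0 and 115 in the latter (1.32, 1.16 to 1.52), with 14 and 10 UMIs in neutrophils.

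Among the 9 other immediate early genes, Dusp1, Ier2 and Ier5 were above 1 in all classes, a count not made over all genes. The exceptions among the alternatives were Dusp1 in fibroblasts, at 0.836 with equal weight for each cluster, and Ier5 in dendritic cells, at 0.947 after thinning. Dusp1, a phosphatase that switches off MAP kinases, had 459 and 928 CPM in neutrophils (2.02, 1.97 to 2.08), 154 and 273 in endothelial cells (1.77, 1.61 to 1.95) and 204 and 234 in fibroblasts (1.15, 1.12 to 1.18). Macrophages had a ratio of 1.26, dendritic cells 1.43 and T cells 2.01. Ier5 had 416 and 793 CPM in neutrophils (1.91, 1.85 to 1.96), its highest class in both libraries, and 269 and 383 in fibroblasts (1.43, 1.40 to 1.46). Ier2 lay between 1.31 in fibroblasts and 1.61 in endothelial cells.

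The phosphatase genes Dusp2 and Dusp5 had their own patterns. Dusp2 was highest in T cells in both libraries, at 114 and 164 CPM (1.44, 1.09 to 1.89). In neutrophils it had 8.13 and 40.1 CPM (4.93, 4.12 to 5.92, from 167 and 470 UMIs), and in endothelial cells 18.5 and 57.2 (3.10, 2.41 to 4.02). Fibroblasts had 63 and 56 UMIs. Dusp5 was highest in dendritic cells, at 548 and 458 CPM (0.837, 0.753 to 0.928), and its ratio was 1.96 in endothelial cells and 0.995 in fibroblasts.

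Ier3, a regulator of cell survival, was among the members with opposite values. It had 1622 CPM in wild-type fibroblasts and 1165 in the others (0.718, 0.711 to 0.726), but 1002 and 1969 in neutrophils (1.96). Macrophages, its highest class, had 2207 and 2337 CPM (1.06, 1.05 to 1.07). Endothelial cells had a ratio of 0.814, dendritic cells 1.82, and T cells 0.454 from 64 and 14 UMIs, or 1.19 when T cells were chosen by their own markers alone.

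Zfp36, which encodes tristetraprolin, a protein that destabilises cytokine mRNAs, had 669 and 1078 CPM in neutrophils (1.61, 1.57 to 1.65), 181 and 349 in endothelial cells (1.93, 1.77 to 2.11) and 194 and 279 in fibroblasts (1.44, 1.40 to 1.48). In macrophages it was slightly lower, at 1091 and 1006 CPM (0.923, 0.910 to 0.935), and at 1.02 after thinning. Rhob, a small GTPase of the cytoskeleton, had 48.0 and 106 CPM in fibroblasts (2.22, 2.11 to 2.33) and 132 and 274 in neutrophils (2.08, 1.98 to 2.19). In endothelial cells, its highest class in both libraries, it was lower, at 441 and 377 CPM (0.854, 0.799 to 0.913). Btg2, an anti-proliferative gene, lay between 0.958 in dendritic cells and 1.65 in endothelial cells.

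Counted by class, endothelial cells had most members at 1.5-fold or more. There 13 of 18 transcription factors, 7 of 9 other immediate early genes and 6 of 6 heat shock genes were at least 1.5-fold higher, and 1 factor, Fosl1, was at least 1.5-fold lower. Over all genes measured there, 15.3% were that much higher and 7.44% that much lower. The median log2 ratios, with 0.5 added to each count, were 0.83, 0.82 and 1.06 for the 3 groups, against 0.04 over all genes. The class was not the same mixture in both libraries: the 5 lymphatic markers summed to 51.5 CPM in the wild-type library and 1221 in the other, the 9 fibroblast markers to 185 and 439, and the 4 melanocyte markers to 0.215 and 75.6. Without the 9 wild-type and 28 other cells that held at least 2 lymphatic markers, those markers stood at 32.5 and 29.5 CPM. The counts above 1 were then 16 of 18, 7 of 9 and 6 of 6 and the medians 0.80, 0.83 and 0.98, and Fos was at 5.19. This exclusion was chosen after seeing the data. The part of the fibroblast and melanocyte markers in the result was not tested.

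In fibroblasts 13 of 19 factors were above 1, with 7 at least 1.5-fold higher (Fos, Jun, Egr2, Atf3, Klf2, Klf6 and Maff, of which Klf6 was at 1.05, Maff at 0.863 and Egr2 at 1.28 with equal weight for each cluster) and 2 at least 1.5-fold lower (Fosl2 and Nr4a3). Of the other immediate early genes 6 of 9 were above 1 and 1, Rhob, was at least 1.5-fold higher. Of the heat shock genes 2 of 6, Hspa1a and Hspa1b, were at least 1.5-fold higher. Over all genes measured 17.7% were at least 1.5-fold higher and 9.63% at least 1.5-fold lower. The median log2 ratios were 0.22, 0.39 and 0.53, against -0.04 over all genes. Neutrophil markers in the fibroblast class summed to 1011 CPM in the wild-type library and 468 in the other, with all 9 detected in both, and the 18 macrophage markers to 978 and 740. Their part in the result was not tested. The 9 fibroblast markers themselves summed to 22725 and 57808 CPM.

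In macrophages 15 of 19 factors were above 1 and 6 were at least 1.5-fold higher (Fosb, Egr1, Egr3, Nr4a2, Nr4a3 and Klf4), with none at least 1.5-fold lower. Of the other immediate early genes 8 of 9 were above 1, 1 of them, Dusp2, at least 1.5-fold, and of the heat shock genes 5 of 6 were at least 1.5-fold higher. Over all genes 18.7% were at least 1.5-fold higher and 6.08% at least 1.5-fold lower. The medians were 0.37, 0.14 and 0.75, against 0.10 over all genes. Neutrophil markers summed to 869 and 391 CPM in this class, and the class's own 18 markers to 18230 and 20126. The clusters were filled unequally here too. Cluster 7, led by Ctsk, Acp5 and Mmp9, held 2 wild-type and 129 other cells, with a median of 20571 UMIs per cell. It entered the sums of the class, and its part in the result was not tested. The factor median was 0.20, 0.24, 0.32 and 0.26 in clusters 4, 5, 6 and 8, each under the class value of 0.37. In cluster 16, with 478 and 964 cells, 8 of 19 factors were above 1. Its factor median was -0.11, the same as over all genes of that cluster. With equal weight for each cluster the factor median of the class was 0.20. The part of the cluster mix was not tested.

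In neutrophils 15 of 19 factors and 9 of 9 other immediate early genes were above 1. Of the factors 8 were at least 1.5-fold higher (Fos, Jun, Junb, Egr1, Atf3, Klf2, Klf4 and Maff) and 1, Egr3, at least 1.5-fold lower, beside 16.2% and 13.1% of all genes. Of the other immediate early genes 6 of 9 were at least 1.5-fold higher (Ier3, Ier5, Dusp1, Dusp2, Zfp36 and Rhob), and of the heat shock genes 5 of 6. The medians were 0.34, 0.93 and 0.94, against 0.01 over all genes. The 9 neutrophil markers summed to 184554 CPM in the wild-type library and 127828 in the other, fibroblast markers to 79.7 and 191, and keratinocyte markers to 18.1 and 56.5. The part of these differences in the result was not tested. The clusters were filled unequally: cluster 10 held 1676 wild-type and 124 other cells, cluster 12 held 891 and 1408, and cluster 14 held 640 and 1130. The factor median was -0.32 in cluster 12, where 7 of 18 factors were above 1, against -0.18 over all genes. It was -0.05 in cluster 13, with 9 of 18 and 925 and 1349 cells, against -0.16 over all genes. In the other 4 clusters it was above 0. The heat shock median was 0.37, -0.09, 0.49, 0.19, 0.46 and 0.48 in clusters 9 to 14, where not all 6 genes were measured. That of the other immediate early genes was 0.91, 0.44, 0.72, 0.30, 0.50 and 0.69. Each lay under the class value. With equal weight for each cluster the class medians of the 3 groups were 0.17, 0.63 and 0.59. The part of the cluster mix was not tested.

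In dendritic cells the groups separated most. The factors had 8 of 17 above 1 with a median of 0.00, and the heat shock genes 6 of 6 with a median of 0.81, against -0.08 over all genes. At least 1.5-fold higher were 4 factors, 2 of 9 other immediate early genes and 5 of 6 heat shock genes, and 1 factor, Nr4a3, was at least 1.5-fold lower, beside 8.62% and 16.2% of all genes. DESeq2 size factors placed the middle of the genes of this class at -0.10 on the log2 scale, and relative to that shift 13 of 17 factors were above 1. With edgeR's scaling factors the count was also 13. B cell markers summed to 7 and 20 UMIs in this class and keratinocyte markers to 29.2 and 117 CPM, and the melanocyte and lymphatic markers were at 0 in both libraries.

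In T cells 10 of 16 factors were above 1, with 5 at least 1.5-fold higher and 5 at least 1.5-fold lower, beside 10.5% and 14.4% of all genes. The 5 lower were Jun, Atf3, Nr4a2, Klf4 and Maff. When presumed doublets were kept, Jun was at 0.849, Atf3 at 1.24 and Nr4a2 at 1.02, and Klf4 and Maff stayed lower, at 0.646 and 0.418. Of the 9 other immediate early genes 8 were above 1, 1 at least 1.5-fold higher and 1, Ier3, at least 1.5-fold lower. Of the heat shock genes 3 of 6 were at least 1.5-fold higher and 1, Dnajb1, at least 1.5-fold lower. The medians were 0.21, 0.35 and 0.60, against -0.02 over all genes. In this class the markers of neutrophils summed to 1981 CPM in the wild-type library and 578 in the other, those of macrophages to 1140 and 605, and those of fibroblasts to 364 and 125. Jun, Nr4a2, Klf4, Ier3, Atf3 and Maff, which were lower here, had higher levels in macrophages than in T cells in both libraries. The part of such RNA was not tested. With 1141485 and 550324 UMIs in all, T cells had the smallest totals of the 6 classes compared.

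Set side by side, the heat shock median lay above the transcription factor median in all 6 classes, by 0.31 in fibroblasts, 0.23 in endothelial cells, 0.38 in macrophages, 0.60 in neutrophils, 0.81 in dendritic cells and 0.39 in T cells. This order was kept in all 16 alternatives in fibroblasts, macrophages, neutrophils and T cells, in all 17 in endothelial cells and in all 15 in dendritic cells. It was less uniform within clusters. Of 18 clusters with at least 20 cells in each library, the heat shock median lay above 0 in 17 and the factor median in 13. Set against the median over all genes of the same cluster, these counts were 17 and 15. The heat shock median lay above the factor median in 14. These were all 5 such macrophage clusters, 2 of 4 fibroblast clusters, 4 of 6 neutrophil clusters and the single cluster of each other class. In the neutrophil clusters between 3 and 5 of the 6 heat shock genes were measured. Hspa1a and Hspa1b were each above 1 in 14 of the 15 clusters where they were measured. Of all 18 clusters, Jun was above 1 in 16, Fos in 15 and Junb in 14.

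**Figure D4:**
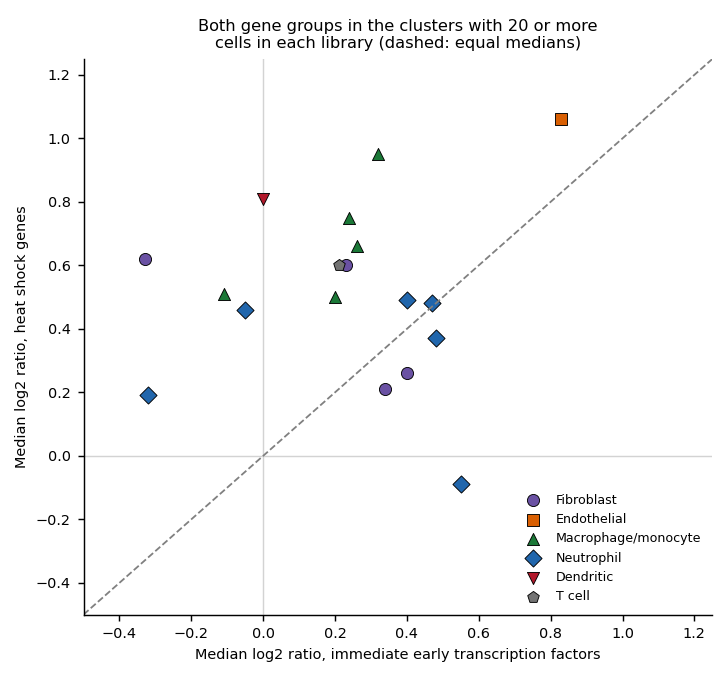
Each point is 1 cluster with at least 20 cells in each library, with the median log2 ratio of the transcription factors on the x axis and of the heat shock genes on the y axis. Of the 18 points 14 lie above the dashed line of equal medians, and the endothelial cluster lies farthest up and to the right.

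Fibroblast clusters differed between the libraries, and this bears on the fibroblast values. Cluster 19 held 37 wild-type and 649 other cells of the class, and cluster 0 held 788 and 294. In cluster 0 the log2 ratio was 1.36 for Hspa1a and 1.01 for Hspa1b, in cluster 3 it was 1.35 and 0.84, and in cluster 19 it was 0.50 and -0.00. In cluster 1, whose cells were shallow, it was -0.43 and 0.42. Cluster 21 held 14 wild-type cells against 972 others and was not compared as a cluster. It was in the class sums but was left out where each cluster had equal weight. With equal weight for each cluster the fibroblast ratios were 1.73 for Hspa1a, 1.26 for Hspa1b, 1.36 for Rhob, 1.05 for Klf6, 0.799 for Myc and 4.0 for Klf2. Jun was higher in all 4 clusters, with log2 ratios of 1.24, 1.01, 0.99 and 0.40, and Fos likewise, with 0.57, 1.14, 0.90 and 1.89. Junb had -0.41 in cluster 0 and -0.26 in cluster 19. The median over all genes was -0.04 in clusters 0 and 1, 0.01 in cluster 3 and -0.38 in cluster 19. The factor median was -0.33 in cluster 0, where 7 of 19 factors were higher and 6 of 6 heat shock genes were.

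For shares of cells with a UMI, every cell was first thinned to 1000 UMIs, and this dropped 393 and 136 fibroblasts, 19 and 14 endothelial cells, 148 and 124 macrophages, 228 and 310 neutrophils, 4 and 0 dendritic cells and 2 and 6 T cells as too shallow. Hspa1a was found in 7.54% of wild-type and 16.8% of other fibroblasts, and in 15.7% and 28.8% of endothelial cells. In macrophages the shares were 9.03% and 17.1%. No class is known to lack these genes, and the lowest was neutrophils, with 0.647% and 0.960%. In T cells 2.64% and 2.67% of cells had a UMI of Hspa1a, beside a CPM ratio of 3.17. Fos was found in 8.79% and 13.4% of fibroblasts and in 6.55% and 18.8% of endothelial cells, and Dusp1 in 30.9% and 47.8% of neutrophils. Ier3 was found in 54.9% and 48.0% of fibroblasts and in 53.5% and 71.8% of neutrophils, opposite directions as in the CPM. Before thinning, the shares of Hspa1a were 27.5% and 50.9% in fibroblasts, 24.3% and 38.8% in macrophages and 1.18% and 1.74% in neutrophils.

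**Figure D5:**
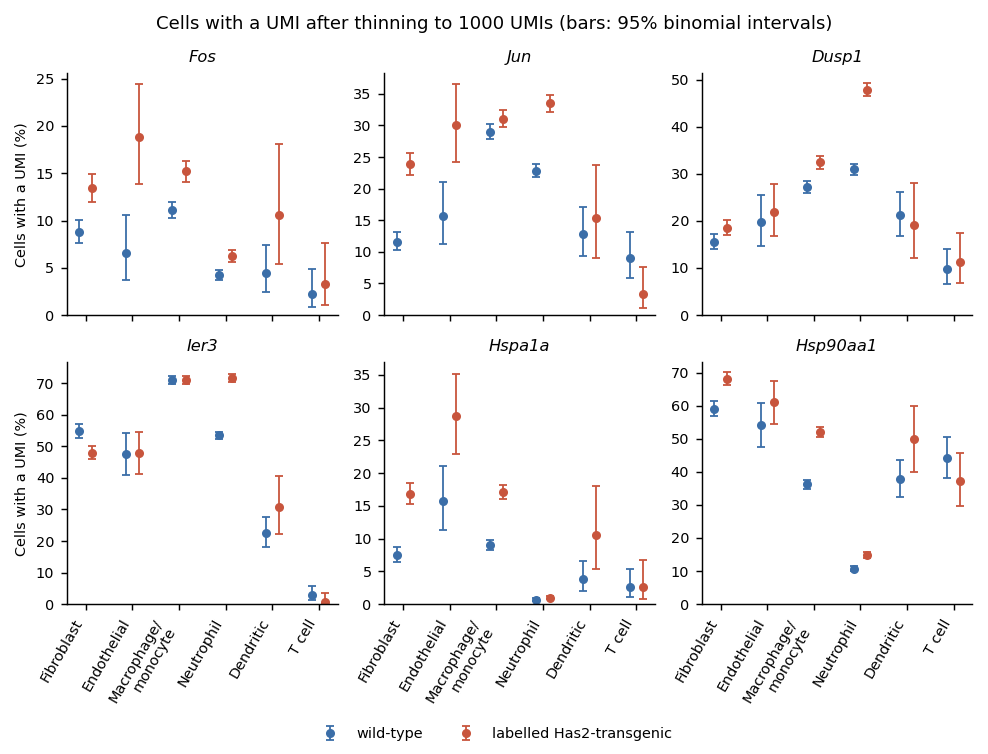
Points are the percent of cells with at least 1 UMI of a gene after thinning to 1000 UMIs, in the 6 compared classes, blue for wild-type and red for the library labelled Has2-transgenic, with 95% exact binomial intervals. Red lies above blue for Hspa1a in fibroblasts, endothelial cells and macrophages, and both colours overlap in T cells.

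Over the thinned cells of a class, the summed factors and the summed heat shock genes were weakly linked. Spearman's rho, a description over cells that share a library, was 0.23 and 0.34 in fibroblasts, 0.20 and 0.41 in endothelial cells, 0.25 and 0.24 in macrophages and 0.14 in neutrophils of both libraries. The 10% of fibroblasts with most heat shock UMIs held 30.9% of them in the wild-type library and 31.0% in the other. For neutrophils that share was 60.6% and 58.1%.

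Related genes outside the 34 were read from further lists. Of 30 further early response genes 29 were above 1 in endothelial cells and 16 were at least 1.5-fold higher, beside 53.4% and 15.3% of all genes, with Irf1 at 3.11 and the matricellular genes Ccn1 and Ccn2 at 2.95 each. In neutrophils 22 of 27 were above 1, beside 50.3% of all genes, among them Gadd45b at 1.91. In fibroblasts 12 of 30 were, beside 46.9%. In macrophages 17 of 29 were, beside 59.2%, with a median log2 ratio of 0.04 against 0.10 over all genes. The highest ratio there was that of Arc, at 0.897 and 9.39 CPM (10.5), while Zfp36l1 had 424 and 217 CPM (0.512). Of 20 further chaperones 18 were above 1 in macrophages, where 59.2% of all genes were, with Hspd1 at 2.02 and Hsp90ab1 at 1.70, and 16 in endothelial cells. In fibroblasts 7 of 20 were, with the small heat shock gene Hspb1 at 117 and 292 CPM (2.50). Hsf1, the factor that drives the inducible heat shock genes, had 22.5 and 23.1 CPM in fibroblasts and 9.84 and 12.4 in macrophages. Its relative Hsf2 had 16.5 and 9.66 CPM in endothelial cells.

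The chaperones of the endoplasmic reticulum did not follow the cytosolic ones in endothelial cells. Of 16 genes of the unfolded protein response 2 were above 1 there and 14 below, beside 53.4% of all genes above 1. Manf was at 406 and 231 CPM (0.568) and Hsp90b1 at 1035 and 677 (0.654). In fibroblasts 5 of 16 were above 1, beside 46.9% of all genes, and in macrophages 6 of 16, beside 59.2%. Pericytes or smooth muscle cells, among the smaller classes described below, had 2 of 15, beside 46.2%. Dendritic cells had 12 of 16, beside 40.1%, and T cells 9 of 14, beside 46.9%. In neutrophils 13 of 16 were above 1, beside 50.3% of all genes, with Hspa5, the chaperone of that compartment, at 301 and 654 CPM (2.18). The list of MAP kinase and serum response genes covers a pathway that signals to the immediate early genes, with its inhibitors, such as Spry2 and Spred1. Of these, 6 of 24 were above 1 in fibroblasts, beside 46.9% of all genes, and 6 of 23 in macrophages, beside 59.2%. In endothelial cells 14 of 24 were, beside 53.4%, with a median log2 ratio of 0.03 against 0.04 over all genes. The nuclear RNAs Malat1 and Neat1 had ratios of 0.892 and 1.24 in fibroblasts and 0.911 and 0.696 in neutrophils. In endothelial cells both were higher, at 1.40 and 1.22, and the part of this in the result was not tested. Macrophages had 0.952 and 1.04, dendritic cells 0.947 and 0.949, and T cells 0.981 and 1.05.

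The 4 smaller classes are given as values. Pericytes or smooth muscle cells, 54 wild-type and 150 others, had 15 of 19 factors and 6 of 6 heat shock genes above 1, beside 46.2% of 9526 genes, with Fos at 243 and 623 CPM (2.57, 2.24 to 2.95) and the Hspa1a and Hspa1b pair at 647 and 1956 (3.03, 2.79 to 3.29). In this class fibroblast markers summed to 8356 and 18256 CPM, neutrophil markers to 2028 and 568 and its own 8 markers to 1573 and 6090, and their part was not tested. Keratinocytes were on the other side, with 1 of 19 factors, 0 of 9 other immediate early genes and 1 of 6 heat shock genes above 1, beside 43.9% of 9941 genes. Their Fos levels were 843 and 391 CPM (0.463, 0.411 to 0.523) and the pair's 1092 and 793 (0.726, 0.656 to 0.805). That class had 21 wild-type cells against 186 others, and the top wild-type cell of each gene held 51.2% of the Fos UMIs and 55.2% of those of Hspa1b. Without the top cell of each library the Hspa1b levels were 345 and 434 CPM, in the other direction. Neutrophil markers in the keratinocyte class summed to 190 and 1659 CPM, macrophage markers to 1131 and 2211 and its own 12 markers to 21318 and 47440, and Malat1 had a ratio of 0.566, and their part was not tested. In Schwann cells, 72 and 65, the pair had a ratio of 1.13 (0.960 to 1.33). There 9 of 19 factors, 4 of 8 other immediate early genes and 4 of 6 heat shock genes were above 1, beside 51.2% of 6904 genes. The log2 ratios of the factors ran from -2.28 to 1.34, and Jun had 585 and 1482 CPM (2.53, 2.19 to 2.93). Fibroblast markers summed to 1713 and 5279 CPM in this class and Malat1 had a ratio of 0.547, and their part was not tested. In 38 and 40 mast cells or basophils the pair was at 871 and 1250 CPM (1.44, 1.18 to 1.75), and 1 wild-type cell held 82.5% of the Hspa1a UMIs. Of the factors 14 of 17 measured and of the heat shock genes 5 of 6 were above 1 there, beside 61.5% of 2867 genes. The other immediate early genes were mostly below 1 in this class. Of 8 measured, 2 were above 1, with 1 at least 1.5-fold higher and 5 at least 1.5-fold lower.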

How the data were processed

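The deposited counts are unnormalized UMIs for each gene in each barcode. The submitters' processing notes name Cell Ranger 9.0.1 and the build GRCm39. From these counts, barcodes with under 200 genes (137 and 150) or over 15% mitochondrial UMIs (25 and 57) were left out. Doublet scores in the manner of Scrublet marked 236 and 0 barcodes by its automatic threshold, which had not worked, so the 1156 and 855 highest scores, the share expected for the load, were removed. Both libraries were clustered together with scanpy 1.11.5 (3000 variable genes, 30 components, 15 neighbours, Leiden resolution 1.0), without the 34 genes, the further lists, Has2, mitochondrial or sex-linked genes. The 27 clusters were named from marker lists, and a cell entered a class when its cluster had that name and it held at least 2 of the markers. A tie between pericytes and fibroblasts was settled by the share of each marker set detected, a rule set after the clusters were seen.

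UMIs were summed per library and class, classes with at least 100 cells in each library were compared, and those with at least 20 are given as values. Levels have exact Poisson and ratios exact conditional 95% intervals (scipy 1.17.1), which cover counting error only. Cells are not replicates, so no test was made. The scripts were tested on simulated counts. All 34 members are named, with the genes of each further list that had the highest absolute log2 ratio and at least 100 UMIs, and Has2, Malat1 and Neat1. The members, lists and comparisons were chosen with earlier results of these data known. In all, 15 other settings were set out at the start, among them scaling by edgeR 4.0.16 and DESeq2 1.42.0. A further 2 were chosen after seeing the data (without low-depth clusters, and without endothelial cells that held lymphatic markers). Equal weight for each cluster averaged only clusters with at least 20 cells of the class in each library. Fibroblast cluster 21 and macrophage cluster 7, which are in the class sums, were thus left out of that setting.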

Additional observations from a re-analysis of the deposited data

Results flagged for a closer look

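For 5 genes the ratio was at least 1.5-fold above 1 in one class and at least 1.5-fold below it in another, with at least 100 UMIs in each class. The share of all genes that meet this rule was not counted, so the number says nothing particular of the members. Each difference between classes was not tested, since there was 1 library per genotype. Fosl2 had a ratio of 1.63 in endothelial cells and 0.626 in fibroblasts. Nr4a3 had 1.56 in endothelial cells and 0.626 in fibroblasts. Jun had 2.25 in fibroblasts and 0.464 in T cells, and Dnajb1 1.80 in endothelial cells and 0.620 in T cells, where the counts of the library labelled Has2-transgenic were 34 and 35 UMIs. With presumed doublets kept, Jun in T cells was at 0.849. Jun had higher levels in macrophages than in T cells in both libraries, and the part of macrophage RNA in the T cell value was not tested. Egr3 had 3.46 in macrophages, from 69 and 201 UMIs (1.63 with equal weight for each cluster and 5.95 after thinning), and 0.405 in neutrophils, from 212 and 49 UMIs.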

How the results depend on the processing

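Of the counts of members above 1, by gene group and class, 283 values under an alternative stayed within 1.5 times the reported count and 5 did not. In dendritic cells 13 of 17 transcription factors were above 1 with edgeR's or DESeq2's scaling factors, in place of 8. In T cells the factors had 6 of 8 above 1 with a minimum of 100 UMIs and 6 of 11 after thinning, in place of 10 of 16, since fewer genes were measured. The heat shock genes of T cells had 3 of 6 above 1 when presumed doublets were kept, in place of 5; the cause was not tested. Of the single ratios 2632 values stayed within the counting interval, 486 moved beyond it, and 7 of genes that were at least 1.5-fold from 1, from at least 100 UMIs, changed sides. The 7 were Maff in fibroblasts with equal weight for each cluster (0.863), Nr4a3 in macrophages at Leiden resolution 0.5 (0.671), Hspa1b in T cells with doublets kept (0.749), and, in dendritic cells chosen by their own markers alone, Atf3 (0.799), Rhob (0.606), Hsph1 (0.732) and Dnajb1 (0.792); the cause was not tested. The heat shock median ranged from 0.42 to 0.82 in fibroblasts, 0.98 to 1.14 in endothelial cells, 0.64 to 0.77 in macrophages, 0.59 to 1.03 in neutrophils, 0.45 to 1.41 in dendritic cells and 0.12 to 0.71 in T cells. Leiden resolution 0.5 gave no dendritic cluster and so no value for that class. No paired analysis was possible because there is 1 library per genotype. The total of UMIs limits T cells and dendritic cells most, where many members had under 100 UMIs in a library.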
